A study of Mus musculus with 12 samples.

Results

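The collagen genes were taken as every protein-coding mouse gene whose symbol in the annotation reads Col, a number, a and a number, apart from Col2a1 and Col10a1, and 41 genes met this rule among 37583 gene IDs. They fell into 10 fibrillar chains, 6 chains of basement membrane type IV collagen, 9 FACITs and 16 chains of other kinds. Counts came from RNA-seq of Ocy454, an osteocyte line from mouse long bone that carries a temperature-sensitive T antigen and was used as a subclone of 1 cell. Control cells were the original line, which per the study's methods carried Cas9 and an empty guide vector, and DKO cells were the line labelled as deleted for HDAC4 and HDAC5 by CRISPR/Cas9. Both genotypes were cultured for 14 days at 37 degrees and then left static or exposed to 3 h of fluid flow shear stress (FFSS) on an orbital platform, giving 3 libraries in each of 4 groups. Since each genotype was represented by 1 line, differences between genotypes and between lines cannot be told apart, and the labels do not say whether the 3 libraries of a group were separate cultures, so every p-value below measures only the spread between these libraries.

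Collagens are built from alpha chains that wind around each other into helices, and each chain is the product of its own gene. Fibrillar collagens (types I, III, V, XI, XXIV and XXVII here) form the cross-banded fibrils of connective tissue, and type I makes up most of the organic matrix of bone. Type IV chains form the sheet-like network of basement membranes, FACITs are interrupted collagens that sit on fibril surfaces, and the remaining chains form beaded filaments, short-chain lattices, anchoring fibrils, membrane-bound collagens and multiplexins.

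The libraries held between 17585225 and 19174118 reads assigned to genes, and a count of 0 in a library allows up to 3 counts. Control FFSS replicate 1 stood apart from the other control FFSS libraries. Its chi-square per degree of freedom over genes was 63.8 and 58.0 against replicates 2 and 3, compared with 6.45 between those 2, and between 2.02 and 5.66 within every other group. Its share of reads that HTSeq assigned to no feature was 5.87%, near the 5.10% to 5.21% of control static libraries. The other control FFSS libraries were higher, at 9.19% and 10.04%. Such reads can lie in introns as well as between genes. The share also differed by genotype, at 7.07% to 7.14% in DKO static and 7.93% to 8.55% in DKO FFSS libraries, and its part in the genotype comparisons was not tested beyond the alternative that models it. Because replicate 1 stood apart, FFSS results of collagen genes in control cells are given with and without it. The transcripts of the targeted genes were lowered rather than absent in DKO static cells, with 1461 to 1634 Hdac5 counts against 2421 to 2706 in control static cells. Under FFSS Hdac5 was not lower in DKO cells, at 92.3 to 93.2 CPM against 71.1 to 90.1 CPM in control cells. Both Hdac4 gene IDs were lower in every DKO FFSS library than in every control FFSS library. ENSMUSG00000073617 was at 16.1 to 17.8 against 19.7 to 31.1 CPM, and ENSMUSG00000026313 at 12.7 to 14.0 against 30.7 to 42.6 CPM. Osteocyte markers were low in control static cells, where the summed level of the 6 listed markers was 78.1 to 117 CPM (counts per 1000000 reads of the TMM-scaled library total), and were high in DKO static cells at 3600 to 3687 CPM. Of these markers 5 were tested, and a gene was called at an edgeR adjusted p under 0.05 and over 2-fold. Of the tested markers 4 were called higher, against 7.98% of all genes, led by Sost, Phex and Dmp1 in level. Pdpn was called lower (mean 28.4 against 5.11 CPM), against 7.30% of all genes, and Fgf23 had at most 1 count. The osteoblast list stood at 5547 to 6249 and 14721 to 15164 CPM. How far such differences in cell state bear on the collagen genes was not tested, and in bulk RNA fewer cells of a type and less RNA per cell cannot be told apart.

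Collagen genes took a larger share of the transcriptome in DKO than in control cells. Their summed counts made up 4.06%, 3.49% and 4.06% of assigned reads in the control static libraries and 9.10%, 8.90% and 9.96% in the DKO static libraries, with means of 3.87% ± 0.332 and 9.32% ± 0.561 (SD, n = 3). Under FFSS the control libraries held 3.52%, 1.65% and 1.75%, and the DKO libraries 9.33%, 9.45% and 9.16%. Every DKO library therefore lay above every control library, and control FFSS replicate 1 lay at the level of the static controls. Col1a1 and Col1a2 alone accounted for 2.97% of reads in control static cells and 8.52% in DKO static cells. The classes did not move together. Type IV chains went from a mean of 0.00549% to 0.0576%, while FACITs went from 0.0669% to 0.0438% and the other chains from 0.301% to 0.180%. These sums carry no test.

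**Figure D1:**
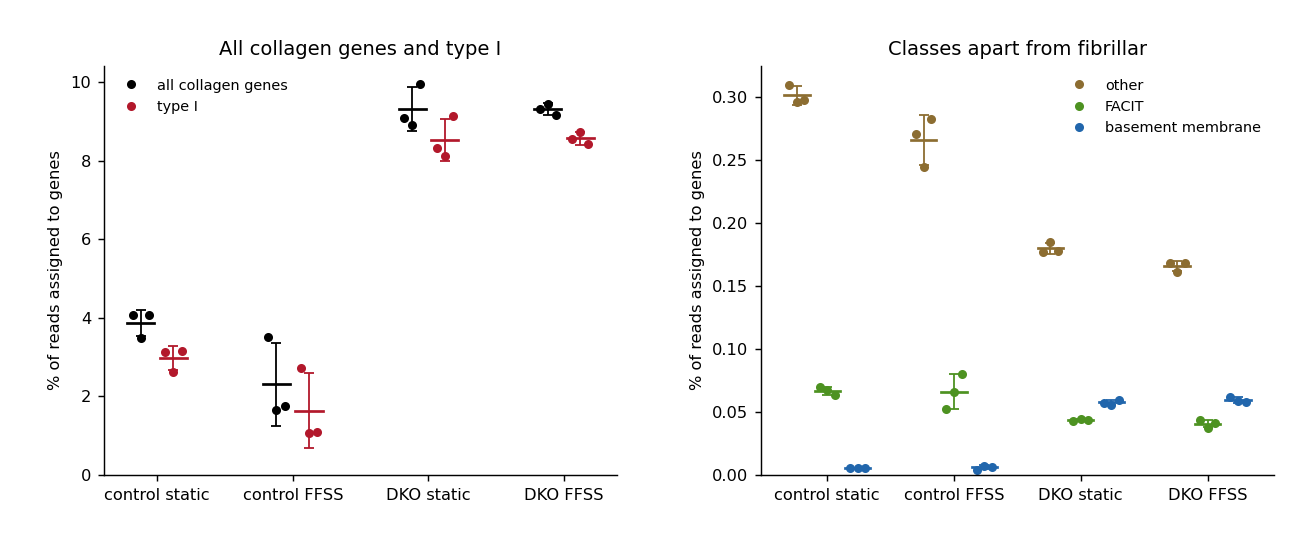
Percentage of gene-assigned reads (vertical axes, linear from 0) taken by all collagen genes and by type I (left) and by the other 3 classes (right) in each of the 12 libraries; points are libraries, bars the mean and SD of 3. The DKO libraries lie between 8.90% and 9.96% for all collagen genes, and control FFSS replicate 1 lies at 3.52%.

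Of the 41 collagen genes, 35 passed the filter on low counts, which removed genes with 0 counts in 2 or more libraries, and 25 of these had a mean of at least 10 CPM. The 6 removed genes were scarce everywhere. Col19a1 had 0 counts in all 12 libraries, Col25a1 had 1 count in total, and Col14a1 had at most 3 counts, Col4a6 at most 7 and Col6a6 at most 6 in a library. Col9a2, a chain of cartilage type IX collagen, was removed as well, but it had 5 to 8 counts in each DKO library and 0 to 2 in each control library.

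The comparison of DKO with static control cells asks which collagen genes depend on the genotype without flow. A gene was called where its edgeR adjusted p was below 0.05 and its levels differed over 2-fold. By this rule 11 of the 35 tested collagen genes were higher in DKO cells, where 7.98% of all genes tested were called higher, and 5 were lower, where 7.30% of all genes were called lower. With the fold limit dropped, 12 were higher and 12 lower, against 27.0% and 27.2% of all genes. The median log2 fold change of the collagen genes was 0.07, beside 0.01 for all genes tested, so the calls ran in both directions around a median close to that of the transcriptome. By class, 4 fibrillar chains were called higher and 1 lower of 10 (median 0.61), 3 type IV chains higher and 0 lower of 5 tested (median 1.42), 1 FACIT higher and 0 lower of 6 (median -0.12), and 3 other chains higher and 4 lower of 14 (median -0.48). All 16 calls held under each of the 21 alternative settings tried. Some sizes moved, and log2 fold changes reached 2.29 for Col1a1, 2.38 for Col1a2, 3.96 for Col24a1, 5.70 for Col13a1 and -1.47 for Col15a1.

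Among the fibrillar collagens, the 2 chains of type I collagen rose together. Col1a1 (ENSMUSG00000001506, chr11:94797538-94814356 in mm9) had 18266, 14901 and 18212 CPM in static control cells and 49306, 47278 and 54732 CPM in DKO cells. The groups did not overlap, and the log2 fold change was 1.56 ± 0.35 (SE, edgeR adjusted p = 0.00405, n = 3 each). Col1a2 (ENSMUSG00000029661, chr6:4454814-4491543) had 13142, 10878 and 13241 CPM in control cells and 38013, 38046 and 42049 CPM in DKO cells, a log2 fold change of 1.66 ± 0.35 (edgeR adjusted p = 0.00246). Both chains were thus about equally higher in DKO cells.

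Type III collagen, which mixes with type I in fibrils of soft tissue, went the other way. Col3a1 (ENSMUSG00000026043, chr1:45368383-45406551) had 474, 440 and 467 CPM in control cells and 67.1, 67.2 and 62.2 CPM in DKO cells. All 3 DKO libraries lay far below all 3 controls, with a log2 fold change of -2.81 ± 0.13 (edgeR adjusted p = 5.9e-09), or 7.03-fold lower by mean CPM.

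The minor fibrillar chains showed 3 patterns. The main type V chains, Col5a1 and Col5a2, which take part in nucleating type I fibrils, had nearly equal levels, with Col5a1 at 1213, 1115 and 1223 CPM in control cells and 1134, 1064 and 1274 in DKO cells (log2 fold change -0.03 ± 0.13). Col5a2, whose gene lies tail to tail with Col3a1 at a distance of 24614 bases, had 2730, 2471 and 2712 CPM in control cells and 2494, 2588 and 2543 CPM in DKO cells. Neither of these passed the test, and their groups overlapped. The third type V chain, Col5a3, was lower at 6.10, 5.59 and 7.495 CPM against 9.09, 10.4 and 8.89 CPM, which passed the adjusted p but not the fold limit.

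Chains of cartilage type XI collagen were less clear. Col11a1 had 464, 465 and 425 CPM in control cells and 495, 506 and 553 in DKO cells, with a log2 fold change of 0.20 ± 0.16. Col11a2 had 543, 406 and 544 CPM against 937, 956 and 1134 CPM, and although its groups did not overlap, its log2 fold change of 1.02 ± 0.54 did not pass (edgeR adjusted p = 0.143).

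Both of the fibrillar collagens described in developing cartilage and bone, types XXIV and XXVII, were called higher. Col24a1 had 10.7, 9.48 and 11.8 CPM in control cells and 72.7, 81.7 and 72.9 CPM in DKO cells (log2 fold change 2.83 ± 0.42, edgeR adjusted p = 0.000335). Col27a1 had 3.65, 3.80 and 3.05 CPM against 39.7, 42.2 and 51.8 CPM, a log2 fold change of 3.67 ± 0.23 (edgeR adjusted p = 8.63e-08). No library of either gene overlapped between genotypes.

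**Figure D2:**
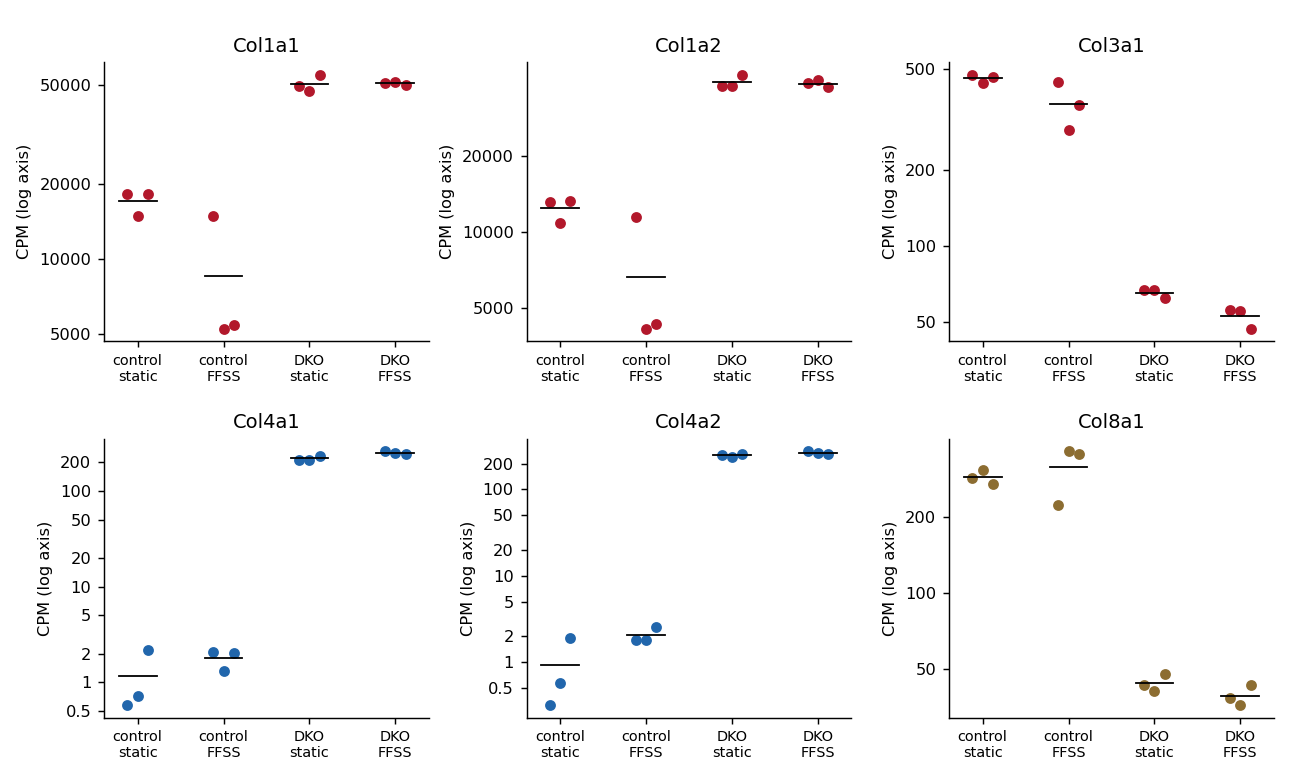
TMM-scaled CPM (log axes, a separate range in each panel) of 6 collagen genes in the 4 groups; points are libraries, lines the mean of 3. Col1a1 and Col1a2 are higher and Col3a1 and Col8a1 lower in every DKO library, and Col4a1 and Col4a2 reach at most 2.16 and 2.52 CPM in a control library.

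The largest differences in the family were in type IV collagen, the basement membrane network. Its most common chains are encoded by Col4a1 and Col4a2, which are transcribed away from each other on chromosome 8 (chr8:11198423-11312826 on the minus strand and chr8:11312805-11449287 on the plus strand) with gene models that overlap by 22 bases. Col4a1 had 0.581, 0.729 and 2.16 CPM in static control cells and 208, 211 and 232 CPM in DKO cells. Col4a2 had 0.317, 0.573 and 1.89 CPM against 252, 240 and 258 CPM. Both genes were near the bottom of detection in control cells and well expressed in every DKO library. The log2 fold changes were 7.55 ± 0.25 and 8.06 ± 0.28 (edgeR adjusted p = 1.26e-09 and 2.72e-09), or 188-fold and 270-fold by mean CPM.

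The size of these ratios rests on few control reads. Control static replicate 3 held 41 Col4a1 and 36 Col4a2 counts, against 6 to 14 counts in the other 2 control static libraries. The same library held 236 Sost counts against 28 and 41, and 173 Col2a1 counts against 18 and 19, genes that had 29518 counts or more in each DKO static library. Control FFSS replicate 1 likewise held 221 Sost counts against 2 and 46 in the other control FFSS libraries, and 226 Col2a1 counts against 16 and 53. Without control static replicate 3 the log2 fold changes of Col4a1 and Col4a2 were 8.36 and 9.11, and the source of these reads was not tested.

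The other type IV chains did not share that pattern. Col4a5, which lies head to head with Col4a6 on the X chromosome at a distance of 1308 bases, had 51.1, 53.9 and 51.0 CPM in control cells and 138, 137 and 144 CPM in DKO cells (log2 fold change 1.42 ± 0.13, edgeR adjusted p = 1.94e-06). Col4a6 had at most 3 counts in a control static library and 2 to 7 in the DKO static libraries, too few to test. Col4a3 and Col4a4, a further head-to-head pair 71 bases apart on chromosome 1, stayed under 1 CPM in all 12 libraries and were not called. Endothelial cells are a usual source of type IV collagen in tissue. Of the 5 listed endothelial markers, Kdr, Cdh5 and Tek had 0 to 2 counts in every static library of both genotypes, and the summed level of the list was 27.1 to 29.0 CPM in control and 4.28 to 5.22 CPM in DKO static cells, carried by Vwf, which was lower in DKO cells.

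Of the 6 tested FACITs, 1 was far higher in DKO cells, 2 were lower by less than 2-fold and 3 did not pass the test. Col12a1, a FACIT of type I fibrils and the most abundant of the class, had 533, 490 and 461 CPM in control cells and 260, 291 and 270 CPM in DKO cells. No DKO library reached a control library, and the log2 fold change of -0.85 ± 0.15 (edgeR adjusted p = 0.000453) was short of 2-fold. Col16a1 fell by 0.78 on the log2 scale in the same way. Col9a1, a chain of the cartilage FACIT type IX, had 1.11, 0.885 and 0.895 CPM in control cells and 17.2, 15.4 and 18.5 CPM in DKO cells (log2 fold change 4.14 ± 0.22, edgeR adjusted p = 2.83e-09). Its partner chain Col9a3 did not follow, at 0.476, 0.469 and 0.631 CPM against 0.385, 0.658 and 0.555 CPM. Col22a1, a FACIT of tissue junctions, had 53.6, 44.0 and 50.4 CPM in control cells and 93.5, 94.3 and 108 CPM in DKO cells, which did not pass (edgeR adjusted p = 0.20), and Col20a1 had 3.57 to 5.28 CPM over all static libraries.

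Cartilage markers moved with these genes in part. Of 6 listed chondrocyte markers, 5 were tested and 2 were called higher in DKO static cells, against 7.98% of all genes. These were Sox9, by 1.33, and Comp, by 1.30 on the log2 scale. Matn1 had 0 counts in every control library and 66 to 85 in the DKO static libraries, while Acan had 82 to 132 counts in control and 71 to 118 in DKO static cells. The summed level of the list was 93.2 to 110 CPM in control and 232 to 253 CPM in DKO static cells, and its part in the collagen results was not tested.

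Among the other collagens, the chains of type VI collagen, which forms beaded filaments around cells, were lower. Col6a1 had 980, 965 and 1023 CPM in control cells and 555, 553 and 558 CPM in DKO cells, Col6a2 had 444, 413 and 439 against 294, 295 and 283, and Col6a3 had 1248, 1086 and 1090 against 747, 849 and 783. Each of these chains passed the adjusted p with groups that did not overlap, at log2 fold changes between -0.83 and -0.53, and none reached 2-fold. Col6a5 and Col6a4, neighbouring genes on chromosome 9 for alternative type VI chains, fell further at low levels. Col6a5 had 8.72, 8.44 and 6.26 CPM against 1.21, 0.713 and 0.944 CPM (log2 fold change -3.02 ± 0.28, edgeR adjusted p = 7.34e-07), and Col6a4 had 1.06, 2.19 and 1.63 CPM against 0.440, 0.219 and 0.333 CPM (log2 fold change -2.28 ± 0.48).

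The short-chain type VIII collagen split by chain. Col8a1 (ENSMUSG00000068196, chr16:57624371-57754850) had 284, 305 and 270 CPM in control cells and 43.3, 41.1 and 47.7 CPM in DKO cells, a log2 fold change of -2.70 ± 0.17 (edgeR adjusted p = 1.86e-07). Col8a2 had 69.0, 68.5 and 68.9 CPM in control cells and 126, 108 and 117 CPM in DKO cells, a log2 fold change of 0.77 ± 0.07 that passed the adjusted p and not the fold limit. One chain was thus lower and the other higher in all 3 DKO libraries.

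Of the 4 membrane-bound collagens, 3 were tested and 2 were called higher in DKO cells, against 7.98% of all genes. Col13a1, found at cell adhesion sites, had 2.64, 1.56 and 2.26 CPM in control cells and 45.0, 56.0 and 50.7 CPM in DKO cells (log2 fold change 4.55 ± 0.35, edgeR adjusted p = 1.56e-06). Col23a1 had 3.91, 4.79 and 4.26 CPM against 15.8, 17.8 and 15.5 CPM (log2 fold change 1.92 ± 0.15), while Col17a1 did not pass (log2 fold change 0.32) and stayed under 0.6 CPM in all 12 libraries. Col28a1, a type VI relative, rose from 1 to 8 counts to 15 to 20 counts per static library (log2 fold change 2.27 ± 0.46, edgeR adjusted p = 0.000745, and 3.49 without control static replicate 2, which held the 8). Of the multiplexins, whose C-terminal fragments are known as angiogenesis inhibitors, Col15a1 had 43.8, 35.6 and 44.4 CPM against 7.37, 6.09 and 8.66 CPM. Its log2 fold change was -2.48 ± 0.51 (edgeR adjusted p = 0.0025), and -1.47 at its smallest among the alternatives. Col18a1 fell by 0.44 on the log2 scale. Col7a1, which makes the anchoring fibrils of skin, had 7.08 to 8.63 CPM in control and 7.86 to 9.05 CPM in DKO static cells.

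Under FFSS the comparison of the genotypes called more collagen genes, with 13 of 35 higher in DKO cells and 7 lower, against 8.25% and 8.96% of all genes tested. With library totals in place of TMM these were 12 and 10. Without the fold limit 17 were higher and 14 lower, against 27.0% and 29.6% of all genes. The median log2 fold change was 0.55 for the collagen genes and -0.05 for all genes. The 11 genes called higher in static cells were all called higher again, joined by Col11a2 and Col22a1. Of the 5 called lower in static cells, Col3a1, Col8a1, Col6a4 and Col6a5 were called again. Col15a1 was not, at 35.1, 8.73 and 9.20 CPM in control FFSS and 8.57, 6.60 and 6.60 CPM in DKO FFSS cells (log2 fold change -1.28 ± 0.52, edgeR adjusted p = 0.0625). Of the 20 calls, 17 held under each of the 21 alternatives, and Col9a3 lost its call under 3 of them, Col4a5 under 2 and Col22a1 under 2, DESeq2 among them.

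The genes that joined the calls had control FFSS libraries that differed among themselves. Col11a2 had 439, 83.2 and 109 CPM in control FFSS cells and 999, 854 and 1001 CPM in DKO FFSS cells (log2 fold change 2.18 ± 0.56, edgeR adjusted p = 0.00864). Col22a1 had 42.8, 6.73 and 4.70 CPM against 88.05, 83.7 and 95.2 CPM (log2 fold change 2.31 ± 0.65, edgeR adjusted p = 0.0141). In both genes the DKO levels were close to those of static DKO cells and control replicates 2 and 3 were far below the static controls. Col5a3, with 13.1, 18.1 and 22.2 CPM against 7.35, 8.80 and 7.16 CPM, was called lower at -1.20 ± 0.17. Col20a1, with 8.58, 11.0 and 19.2 CPM against 4.48, 3.69 and 4.81 CPM, was called lower at -1.58 ± 0.26. Col9a3 was also called lower (-1.14 ± 0.37), at 0.616, 0.976 and 1.435 CPM against 0.442, 0.595 and 0.3355 CPM, under 1.5 CPM in every library. Of its exon bases, 6.07% overlap Tcfl5 on the opposite strand, whose reads this counting cannot separate by strand.

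Among the genes called in both conditions, Col1a1 had 14906, 5281 and 5471 CPM in control FFSS and 50764, 51304 and 49973 CPM in DKO FFSS cells, a log2 fold change of 2.57 ± 0.37 (edgeR adjusted p = 0.000213). Col1a2 had 11456, 4131 and 4304 CPM against 38957, 40036 and 37773 CPM (2.55 ± 0.36). Col4a1, with 2.05, 1.32 and 2.03 CPM against 257, 245 and 239 CPM, and Col4a2, with 1.80, 1.81 and 2.52 CPM against 276, 263 and 257 CPM, stayed far apart at 7.10 ± 0.23 and 7.01 ± 0.25. Col3a1 had 447, 286 and 360 CPM against 55.8, 55.5 and 47.2 CPM (-2.79 ± 0.14), and Col8a1 had 222, 362 and 355 CPM against 38.5, 36.1 and 43.3 CPM (-2.99 ± 0.17). Leaving out control FFSS replicate 1 moved the log2 fold changes of Col1a1 to 3.24, Col1a2 to 3.21, Col11a2 to 3.31, Col22a1 to 3.96, Col24a1 to 5.36 from 4.07 and Col13a1 to 6.91 from 5.53.

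The remaining genes called higher in static cells were also higher in DKO cells under FFSS. Col24a1 had 8.58, 1.71 and 1.44 CPM in control FFSS and 64.7, 61.9 and 68.0 CPM in DKO FFSS cells. Col27a1 had 2.98, 5.90 and 6.78 CPM against 48.9, 47.8 and 40.1 CPM (log2 fold change 3.12 ± 0.22). Col4a5 had 36.7, 61.1 and 51.1 CPM against 118, 105 and 109 CPM (1.15 ± 0.13). None of these groups overlapped between genotypes, and the same held for the next 4 genes. Col9a1 had 1.03, 0.781 and 0.346 CPM against 17.3, 12.6 and 13.6 CPM (4.33 ± 0.23), and Col13a1 had 2.36, 0.488 and 0.297 CPM against 50.7, 47.2 and 46.1 CPM. Col23a1 had 4.01, 2.39 and 3.07 CPM against 16.6, 14.4 and 14.3 CPM (2.26), and Col28a1 had 2, 4 and 4 counts against 22, 17 and 20 counts (2.70 ± 0.46).

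Type VI chains were again lower in DKO cells. Col6a5 had 6.16, 10.1 and 11.7 CPM in control FFSS and 0.276, 0.476 and 0.503 CPM in DKO FFSS cells (log2 fold change -4.46 ± 0.33, or 22.3-fold lower). Col6a4 had 1.34, 3.95 and 2.87 CPM against 0.332, 0.238 and 0.336 CPM (-3.14 ± 0.46). Both alternative chains were nearly silent in every DKO library. Col6a1 had 879, 619 and 764 CPM against 510, 496 and 503 CPM (-0.58), Col6a2 had 409, 279 and 354 against 261, 266 and 269, and Col6a3 had 960, 786 and 905 against 748, 691 and 746, all passing the adjusted p and none the fold limit. Among chains with near equal static levels, Col5a1 had 950, 605 and 679 CPM in control FFSS and 1126, 1063 and 1091 CPM in DKO FFSS cells (0.55 ± 0.13), Col5a2 had 2230, 1181 and 1175 against 2329, 2249 and 2308 (0.59 ± 0.20), and Col11a1 had 343, 195 and 222 against 502, 468 and 486 (0.94 ± 0.16). These 3 passed the adjusted p under FFSS. Col12a1 had 352, 475 and 589 CPM against 281, 235 and 262 CPM (-0.86 ± 0.15).

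**Figure D3:**
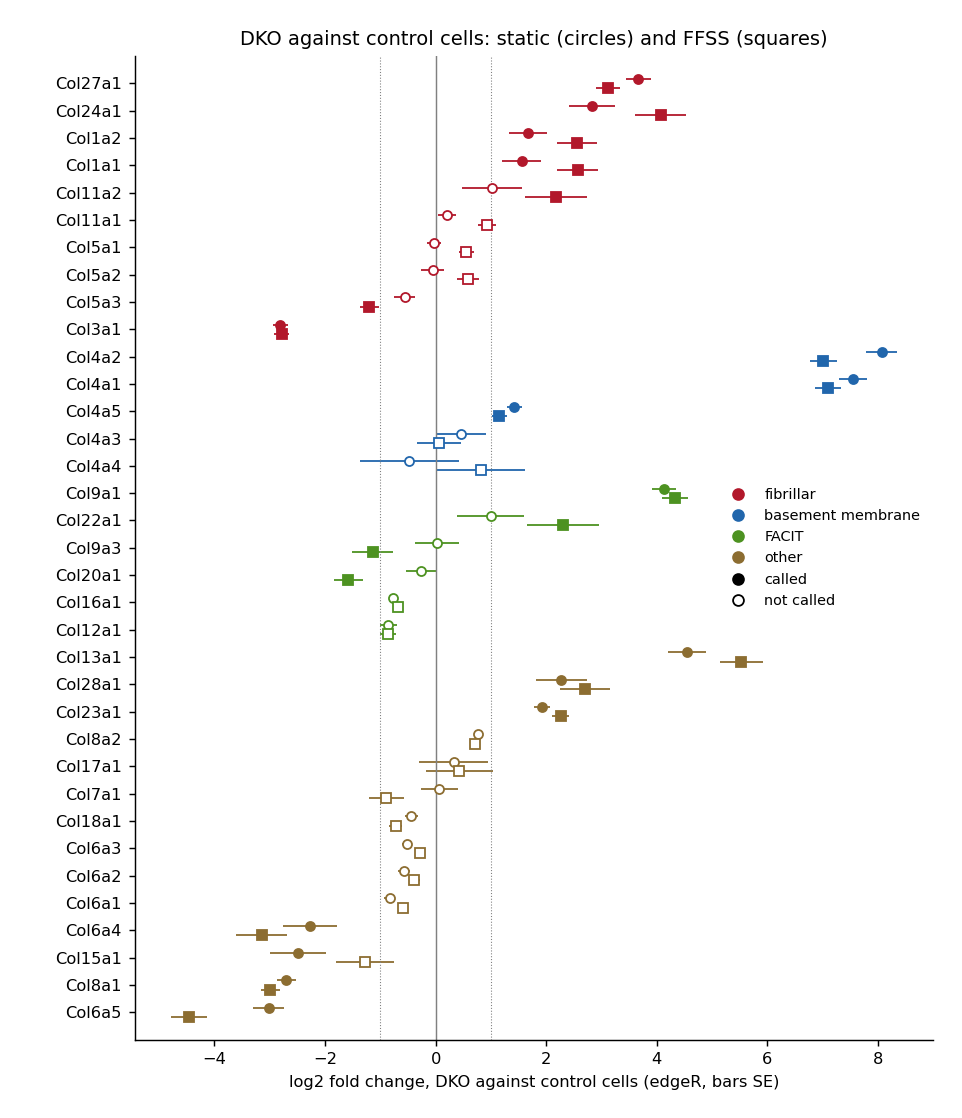
Log2 fold change of DKO against control cells (horizontal axis, bars SE from edgeR) for the 35 tested collagen genes in static (circles) and FFSS (squares) cells, coloured by class; filled symbols were called and dotted lines mark 2-fold. Col4a1 and Col4a2 lie between 7.01 and 8.06, and Col6a5 is lowest at -4.46 under FFSS.

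Ratios between the transcripts of chains, mostly of the same type, showed which balances of transcripts shifted. These are ratios of counts, not corrected for length, and carry no test. The Col1a1 to Col1a2 ratio was 1.38 ± 0.0104 in control static, and 1.28 ± 0.0156 in control FFSS cells (SD, n = 3), and the DKO values were 1.28 ± 0.0328 without and 1.30 ± 0.0208 with flow. Every static control library thus lay above every static DKO library. The Col6a1 to Col6a2 ratio went from 2.29 ± 0.0740 in control static to 1.91 ± 0.0516 in DKO static cells and the Col6a3 to Col6a1 ratio from 1.15 to 1.43, both without overlap. For Col5a1 to Col5a2 the ratio was 0.449 and 0.456, and these libraries overlapped. The Col4a1 to Col4a2 ratio was 1.14 to 1.83 in control static and 0.827 to 0.900 in DKO static libraries. Its control values rest on only 6 to 41 counts per gene and library. The Col8a1 to Col8a2 ratio went from 4.16 ± 0.274 to 0.377 ± 0.0320, and the Col3a1 to Col1a1 ratio from 0.0270 ± 0.00215 to 0.00131 ± 0.000151. The type VIII ratio and the balance of types III and I thus moved by far more than their SD, and the type V ratio by less than its SD in DKO static cells. The Col11a1 to Col11a2 ratio was 0.926 ± 0.192 in control and 0.515 ± 0.0236 in DKO static cells, and it was 0.781, 2.34 and 2.04 in the control FFSS libraries.

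**Figure D4:**
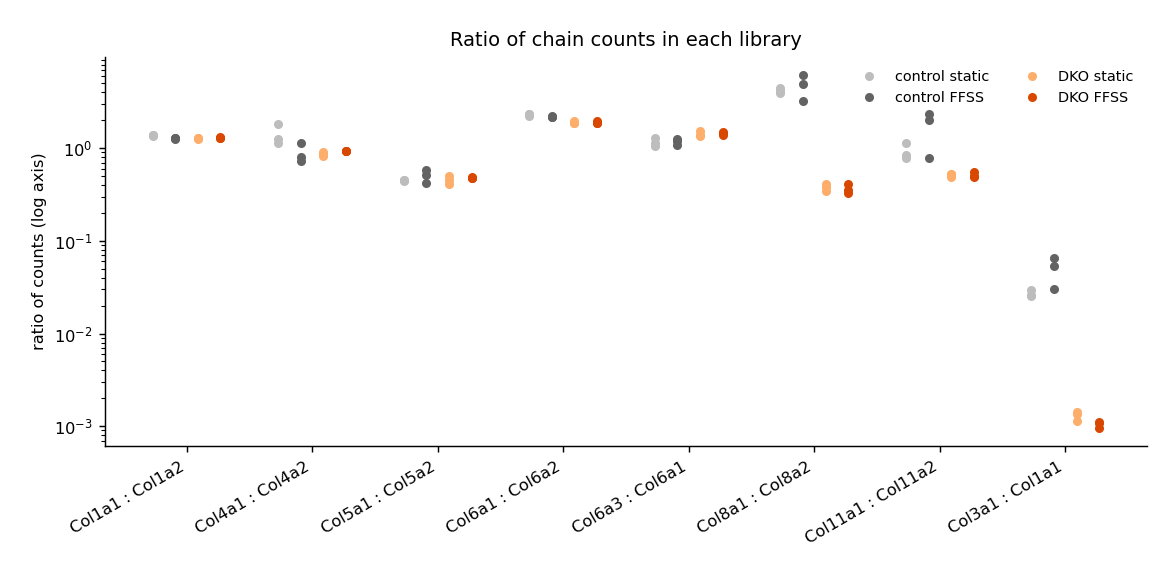
Ratio of counts between chains of a type, and of Col3a1 to Col1a1, in each library (log axis; points are libraries, colours the 4 groups). The Col8a1 to Col8a2 ratio lies at 3.25 or more in every control library and at 0.408 or less in every DKO library.

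Per length of exon, type I chains led in every group. Expressed as RPKM (CPM per kilobase of exon), Col1a1 stood at 2610 in control static and 7685 in DKO static cells and Col1a2 at 1023 and 3242. Next in control static cells came Col5a2 at 275, Col6a1 at 225 and Col5a1 at 139. In DKO static cells Col5a2 followed at 265, then Col11a2 at 148, Col5a1 at 136 and Col6a1 at 126, and these last 3 levels lay close together. Col4a2 at 37.8 and Col4a1 at 31.8 were at the level of Col6a2 (34.9) in DKO static cells, from 0.140 and 0.170 in control static cells. The length used takes in every annotated exon of a gene. It was 12145 bases for Col1a2 and 8326 for Col6a2, against 6563 for Col1a1 and 4393 for Col6a1. RPKM of different genes therefore depend on the annotation and compare only roughly.

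Promoter sequences were read from RefSeq (GRCm38.p6) for 34 of the 41 genes, and none was held for Col1a1, Col5a2, Col12a1, Col14a1, Col22a1, Col4a3 and Col9a3. Letter matches were counted on both strands over the 300-base windows, which run from 250 bases before the gene start to 50 after it. A GC box (GGGCGG) was present in 22 of the 34 collagen windows and in 35.9% of the windows of 27025 genes. A CCAAT box (CCAAT) was present in 12 and in 37.9% of all genes, a TATA box (TATAAA) in 4 and in 14.2%, and a RUNX core (TGTGGT) in 2 and in 16.9%. The consensus core of MEF2 factors, which class IIa HDACs are known to bind, was in 1 window, that of Col13a1, and in 3.26% of all genes. A match is a run of letters and not a measured site, and several factors read other spellings. The 250 bases before the start are shown for 1 gene that was higher and 2 that were lower in DKO static cells, chosen after their values were seen so that promoters of both directions can be read side by side, with the matches in capitals. They lie at chr10:61441857-61442106 on the minus strand, chr1:45368133-45368382 on the plus strand and chr16:57754851-57755100 on the minus strand of mm9, found by exact match.
Col13a1: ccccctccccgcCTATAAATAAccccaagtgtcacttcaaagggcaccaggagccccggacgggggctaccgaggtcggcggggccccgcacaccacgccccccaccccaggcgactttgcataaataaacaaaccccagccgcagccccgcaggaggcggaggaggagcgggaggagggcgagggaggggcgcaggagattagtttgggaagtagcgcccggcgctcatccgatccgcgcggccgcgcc
Col3a1: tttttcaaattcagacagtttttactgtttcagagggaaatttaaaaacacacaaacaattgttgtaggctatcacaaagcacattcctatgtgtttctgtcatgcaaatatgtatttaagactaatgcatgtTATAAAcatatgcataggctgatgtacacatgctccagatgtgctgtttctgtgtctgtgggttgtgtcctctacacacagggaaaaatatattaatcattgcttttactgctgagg
Col8a1: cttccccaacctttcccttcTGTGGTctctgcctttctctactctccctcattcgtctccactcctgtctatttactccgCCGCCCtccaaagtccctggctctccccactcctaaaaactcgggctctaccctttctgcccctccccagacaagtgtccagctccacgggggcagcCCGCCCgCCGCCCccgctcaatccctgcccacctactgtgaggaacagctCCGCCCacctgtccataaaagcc
The capitals are a MEF2 core that takes in a TATA box in Col13a1, a TATA box in Col3a1, and a RUNX core followed by 4 GC boxes in Col8a1, with the RUNX core starting 230 bases before the gene start. The letters TATAAA thus stood before 1 gene that was higher and 1 that was lower. They started at -237 bases from the gene start in Col13a1 and at -117 in Col3a1. Whether either works as a TATA box was not tested.

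The comparison of FFSS with static control cells asks which collagen genes respond to flow, and it uses the same static control libraries as the static comparison of genotypes. With all 12 libraries, 2 of the 35 collagen genes were called higher and 2 lower, against 3.96% and 1.97% of all genes tested. With library totals in place of TMM, 5 were called higher and 1 lower. Without the fold limit 3 were higher and 10 lower, against 17.7% and 18.1% of all genes, and the median log2 fold change was -0.27 for the collagen genes and 0.01 for all genes. Col20a1 (log2 fold change 1.38 ± 0.25, edgeR adjusted p = 0.00151) went from 5.28, 4.69 and 4.89 CPM to 8.58, 11.0 and 19.2 CPM, with no overlap. Col7a1 went from 7.08, 8.33 and 8.63 CPM to 8.06, 20.7 and 24.4 CPM (1.15 ± 0.32, edgeR adjusted p = 0.0181), and it lost its call under 5 of 21 alternatives and reversed under 1. Col1a1 and Col24a1 were called lower at -1.002 ± 0.35 and -1.46 ± 0.50, with edgeR adjusted p of 0.0496 and 0.0492, and each lost its call under 15 or more of 21 alternatives. Col24a1 had 10.7, 9.48 and 11.8 CPM in static and 8.58, 1.71 and 1.44 CPM in FFSS libraries.

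The 3 control FFSS libraries did not carry these differences equally. Against the static mean, on the log2 scale of CPM with 0.5 added, Col1a1 differed by -0.20 in control FFSS replicate 1, by -1.70 in replicate 2 and by -1.65 in replicate 3. Col1a2 differed by -0.12, -1.59 and -1.53, and Col11a2 by -0.18, -2.57 and -2.18. Replicates 2 and 3 moved together while replicate 1 stayed near the static mean. Over the 35 tested collagen genes, 0 differed by more than 2-fold in replicate 1, 12 in replicate 2 (3 higher and 9 lower) and 13 in replicate 3 (4 higher and 9 lower). Of all 14904 genes tested, 0.745%, 6.86% and 6.92% differed by more than 2-fold in these libraries. Col22a1 had the largest differences at -2.78 and -3.26 in replicates 2 and 3 and -0.20 in replicate 1.

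Without control FFSS replicate 1, 6 collagen genes were called higher, against 6.86% of all genes, and 9 were called lower, against 4.46% of all genes. The 9 lower genes were the type I chains Col1a1 (-1.67) and Col1a2 (-1.56), the type XI chains Col11a1 (-1.11) and Col11a2 (-2.37), Col5a2 (-1.16), Col24a1 (-2.76), Col13a1 (-2.43), Col15a1 (-2.20) and Col22a1 (-3.11), as log2 fold changes over 2 control FFSS libraries. Fibrillar chains thus made up 6 of the 9. Osteoblast markers did not all move alike. At an edgeR adjusted p under 0.05 with all 12 libraries, 2 of 6 tested were lower, against 18.1% of all genes. Another 1 was higher, against 17.7% of all genes. Counts of Ibsp were 56817 in replicate 1, then 9377 and 10277 in the others, against 47375 to 56586 in static control libraries. Sp7 and Runx2 were lower in every control FFSS library, at no more than 321 and 164 CPM against at least 514 and 188 CPM. Spp1 was higher in every one, at 884 to 1256 CPM against 764 to 834 CPM. The summed list stood at 2137 to 6179 CPM against 5547 to 6249 CPM. The part of these markers in the collagen values was not tested. The 6 collagen genes called higher without control FFSS replicate 1 were Col7a1 (1.49), Col20a1 (1.60), Col5a3 (1.09), Col6a4 (1.07), Col9a3 (1.19) and Col4a2 (1.21). All of them were low, with at most 24.4 CPM in any control library. Leaving out control FFSS replicate 2 instead left 1 call (higher), and leaving out replicate 3 left 0. The share of reads on no feature was higher in the 2 libraries that carried these differences, at 9.19% and 10.04%. With that share in the model 0 collagen genes were called. Whether the reads on no feature, the response to flow or the state of replicate 1 set these values was not tested.

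**Figure D5:**
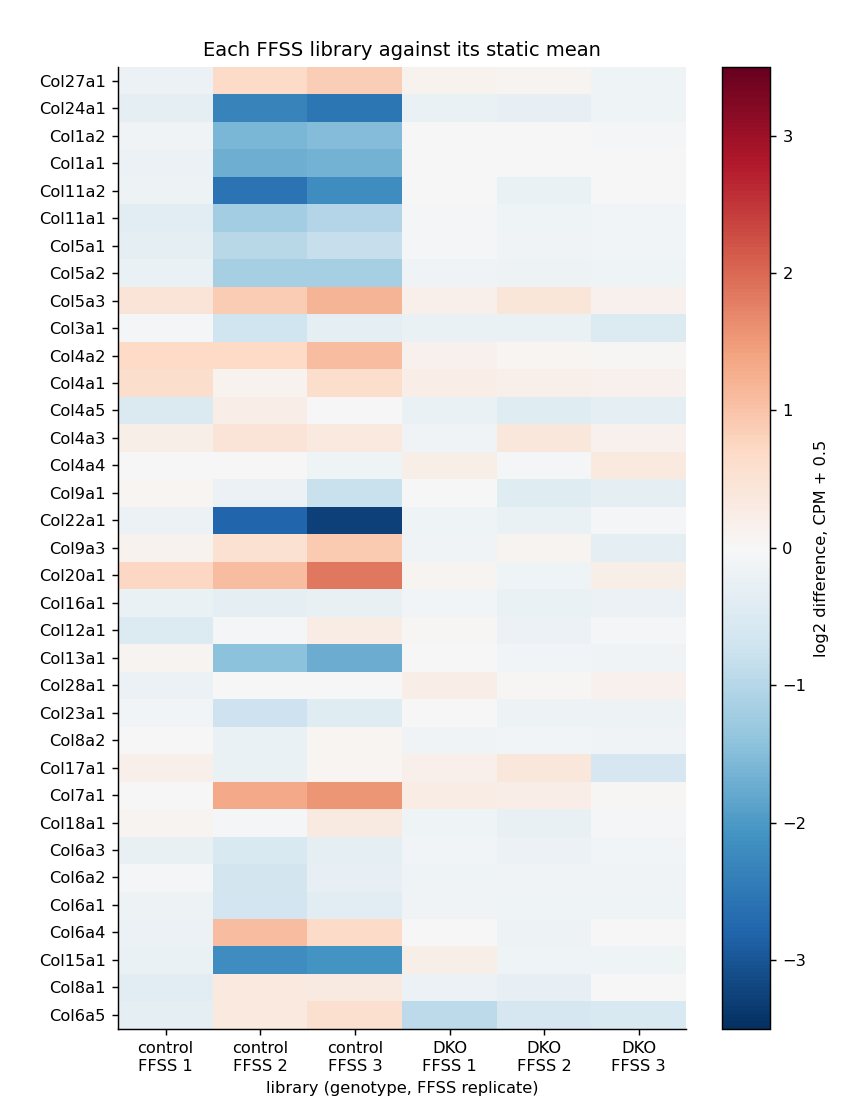
Log2 difference of each FFSS library from the mean of the 3 static libraries of its genotype (colour scale, CPM with 0.5 added) for the 35 tested collagen genes, ordered by class. Control FFSS replicates 2 and 3 carry differences down to -3.26, and no gene passes 2-fold in control FFSS replicate 1 or in any DKO FFSS library.

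For FFSS in DKO cells the counts of collagen genes were near the shares of all genes. No collagen gene was called by edgeR, against 0.0134% of all genes called higher and 0.0738% called lower, or by DESeq2, against 0.0134% and 0.0872%, and 4 of 35 had an unadjusted p under 0.05, against 13.5% of all genes. Col1a1 differed by 0.01, 0.02 and -0.01 on the log2 scale in the 3 DKO FFSS libraries, and the fitted log2 fold changes ran from -1.18 ± 0.46 for Col6a5 to 0.98 ± 0.84 for Col4a4. Col6a5 was lower in each DKO FFSS library, at 0.276, 0.476 and 0.503 CPM against 1.21, 0.713 and 0.944 CPM in static libraries. Its adjusted p was 0.272 by edgeR, it was the 1 collagen gene called (lower) when control FFSS replicate 1 was left out of the fit, and its level is that of a few reads.

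Whether the response to FFSS differed by genotype was tested as an interaction. By edgeR 0 collagen genes were called, against 0.376% of all genes called higher and 0.275% lower, and 7 of 35 had an unadjusted p under 0.05, against 23.8% of all genes. DESeq2 called 2, both lower, which were Col20a1 (-1.30) and Col6a5 (-1.44), where it called 0.698% of all genes higher and 0.476% lower. Without control FFSS replicate 1 there were 9 higher and 4 lower, against 3.43% and 4.17% of all genes. The 9 higher genes were Col22a1 (2.96), Col24a1 (2.53), Col13a1 (2.36), Col11a2 (2.29), Col15a1 (2.18), Col1a1 (1.68), Col1a2 (1.54), Col11a1 (1.02) and Col5a2 (1.02), and the 4 lower were Col7a1 (-1.30), Col9a3 (-1.41), Col20a1 (-1.53) and Col6a5 (-1.66), on the log2 scale. The interaction contains the FFSS effect in control cells and shares all its libraries, so these values are no separate support for it. A difference between genotypes in the response of type I collagen to FFSS was therefore not detected with all libraries (Col1a1 1.01 ± 0.49, edgeR adjusted p = 0.245) and was called when 1 library was left out.

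The biosynthesis list held genes that hydroxylate, fold, export, trim, cross-link and take up collagen. It also held fibril partners such as Fn1 and receptors such as Itga11. Of its 56 genes, 49 were tested. In static cells 8 were called higher and 5 lower in DKO than in control cells, against 7.98% and 7.30% of all genes, with a median log2 fold change of 0.28 beside 0.01 for all genes. Under FFSS 14 were higher and 4 lower, against 8.25% and 8.96% of all genes, with a median of 0.52 beside -0.05. With library totals in place of TMM the counts were 6 higher and 6 lower in static cells and 10 and 5 under FFSS. Adamts14, a procollagen N-propeptidase, had a mean of 4.83 CPM in control static and 24.9 CPM in DKO static cells (log2 fold change 2.37 ± 0.14). Glt25d2, a collagen galactosyltransferase, had a higher log2 fold change (2.91) at only 0 to 3 counts in control static and 5 to 20 in DKO static libraries. Mrc2, the collagen uptake receptor, had 222 and 984 CPM (2.15 ± 0.06), and Loxl4, a lysyl oxidase of cross-linking, had 321 and 817 CPM (1.35 ± 0.23). Leprel1, a prolyl hydroxylase family member of the endoplasmic reticulum, went from 82.1 to 16.2 CPM (-2.34 ± 0.19). Dcn, the fibril-coating proteoglycan decorin, went from 21.7 to 8.95 CPM and was called lower. Also called lower were Tnxb, Tll1 and Mep1a, with at most 3.12, 1.96 and 0.370 CPM in the static libraries. Under FFSS the highest fold changes among genes with a mean log2 CPM over 1 were those of Loxl4 (2.61 ± 0.25), Adamts14 (2.59 ± 0.14) and Mrc2 (2.21 ± 0.06), and Loxl1 (-1.59 ± 0.08) and Leprel1 (-1.15 ± 0.19) were lower. Of the 7 chaperone and export genes, 1 was called higher in static cells, against 7.98% of all genes, and 4 were under FFSS, against 8.25% of all genes, where the collagen chaperone Serpinh1 had 1379 CPM in control and 2796 CPM in DKO cells.

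In the same list, 23 of 49 genes did not pass the adjusted p for FFSS in control cells. More of the others were lower than higher. Of the 49 genes, 22 were lower and 4 higher at an adjusted p under 0.05, against 18.1% and 17.7% of all genes, and 4 and 1 of these passed the fold limit, against 1.97% and 3.96%. Without control FFSS replicate 1, 8 were called lower and 2 higher, against 4.46% and 6.86% of all genes. P4ha1 and P4ha2, the catalytic chains of collagen prolyl hydroxylase, were called lower, P4ha1 at 771 ± 12.7 CPM in static and 270 ± 103 CPM in FFSS libraries (mean and SD of 3, log2 fold change -1.51 ± 0.22, edgeR adjusted p = 0.000881) and P4ha2 going from 628 ± 23.0 to 271 ± 106 CPM (-1.21 ± 0.25). Loxl4 fell by 1.45 and Leprel1 by 1.37 on the log2 scale, and Tll1, a procollagen C-propeptidase, rose by 1.18. Without control FFSS replicate 1 these log2 fold changes were -1.87 for P4ha1, -1.57 for P4ha2, -1.87 for Loxl4, -1.66 for Leprel1 and 1.12 for Tll1. With the share of reads on no feature in the model, Tll1 alone was called. In that setting P4ha1 was at -0.89, P4ha2 at -0.58, Loxl4 at -0.69 and Leprel1 at -0.82. Unlike the type I chains, P4ha1 and Leprel1 were lower in all 3 control FFSS libraries, with highest values of 387 and 43.3 CPM against lowest static values of 757 and 73.8 CPM. In DKO cells 0 of the 49 were called by edgeR or DESeq2, and 4 had an unadjusted p under 0.05, against 13.5% of all genes. For the interaction 4 of the 49 were higher and 1 was lower at an edgeR adjusted p under 0.05, against 2.28% and 1.68% of all genes, and of these Leprel1 alone passed the fold limit. Its call was lost on leaving out any library other than control FFSS replicates 1 and 2, and without the filter on low counts. The call was also lost with the share of reads on no feature in the model.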

How the data were processed

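Total RNA of Ocy454 cells was sequenced by the authors in 12 libraries as single-end reads, aligned with STAR to mm9 and counted per Ensembl gene with HTSeq without strand, per the labels and the study's methods. The deposited values are raw counts, 1 file per library. The 5 HTSeq summary lines (22.5% to 25.9% of the total) were left out. Genes with 0 counts in 2 or more libraries were removed, as in the study's methods. Counts were scaled by TMM and fitted with edgeR 4.0.16 (quasi-likelihood, robust; R 4.3.3) in 1 model of 4 groups, with Benjamini-Hochberg adjustment over all 14904 genes tested. CPM are counts per 1000000 of the TMM-scaled total; summed shares use assigned totals. The fit was also run on simulated data, whose outcome is not reported and carries no weight here. DESeq2 1.42.0 and the other alternatives are given with the closing observations.

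Per-library values were given for called genes and for the main chains of types I, III, IV, V, VI and XII. Of the biosynthesis list, the 3 highest and 3 lowest called genes per comparison with mean log2 CPM over 1 were to be named. P4ha2, Dcn, Serpinh1, Tll1, Tnxb, Mep1a, Glt25d2 and the genes singled out for their interaction were added after their values were seen. Members and lists were chosen with earlier results of these data known. The limit of 3 counts allows for counting error alone, whereas SE and SD include the spread between libraries. The labels do not say whether replicate numbers pair libraries, and the main fit did not pair them.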

Additional observations from a re-analysis of the deposited data

Results flagged for a closer look

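No collagen gene met the rule for a different response to FFSS between genotypes with all 12 libraries. Among the 49 tested genes of the biosynthesis list, 5 did (4 higher and 1 lower, against 2.28% and 1.68% of all genes). The measure was the interaction term of the edgeR fit (DKO effect minus control effect, on the log2 scale). Leprel1 had an interaction of 1.19 (edgeR adjusted p = 0.0365), with FFSS log2 fold changes of -1.37 in control and -0.18 in DKO cells. For Plod2, a lysyl hydroxylase, the interaction was 0.48 (adjusted p = 0.0420), from -0.79 in control and -0.32 in DKO cells. Fn1, the fibronectin gene, had 0.45 (adjusted p = 0.0221), from -0.51 and -0.05. Itga11, a collagen-binding integrin chain, had 0.56 (adjusted p = 0.0399), from -0.69 and -0.12. The cross-linking enzyme Loxl1 went the other way at -0.67 (adjusted p = 0.00852), from 0.40 and -0.27. In each of these genes all 3 control FFSS libraries lay on the same side of the static control range. Apart from Leprel1, these interactions were under 2-fold. Without control FFSS replicate 1 the interactions were 1.48 for Leprel1, 0.60 for Plod2, 0.49 for Fn1, 0.72 for Itga11 and -0.76 for Loxl1. With the share of reads on no feature in the model they were 0.83, 0.30, 0.39, 0.35 and -0.49 in the same order. The Leprel1 interaction lost its call in that setting, without the filter on low counts, and on leaving out any library other than control FFSS replicates 1 and 2.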

How the results depend on the processing

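The 68 collagen gene results that passed the adjusted p with all libraries gave 1428 values under alternatives. Of these values, 1372 kept their direction and stayed called or not called (adjusted p and 2-fold together). Results under 2-fold had no call to keep, and count as kept even where the adjusted p was lost. Another 44 values lost the call, 10 gained one and 2 reversed. Of the 68 results, 19 missed the adjusted p under at least 1 alternative. Results that had not passed are outside this tally, among them most of the genes called for FFSS in control cells without control FFSS replicate 1. The 2 reversals came with the share of reads on no feature in the model, for FFSS in control cells. There Col1a1 was at 0.0175 and Col7a1 at -0.21 (log2). That share moves with FFSS and with genotype, so the term and the groups cannot be told apart. Library totals in place of TMM shift the median of all genes by 0.12 for FFSS in control cells, -0.11 for the interaction, -0.08 for DKO in static and -0.20 for DKO in FFSS cells.

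Counts of collagen genes called for FFSS in control cells (4) were 13 without the fold limit and 1 without the filter on low counts. They were 1 with only the 6 libraries compared and 0 with the share of reads on no feature in the model. For FFSS in DKO cells (0) they were 1 with that share and 1 with only the 6 libraries compared (Col6a5 in both). The interaction (0) gave 2 by DESeq2 and 1 with the replicate block. For DKO under FFSS (20), dropping the fold limit gave 31. Of the biosynthesis genes, dropping the fold limit gave 26 for FFSS in control cells (5), 34 for DKO static (13), 39 for DKO FFSS (18) and 5 for the interaction (1). With the share in the model there was 1 (higher) for FFSS in control cells and 0 for the interaction, which also gave 2 with library totals, 3 by DESeq2 and 0 without the filter. The summed DKO FFSS level went from 93153 to 97385 CPM with TMM-scaled totals. The causes were not tested.

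Leaving out 1 library at a time gave 0 to 15 collagen genes for FFSS in control cells, 0 to 1 for FFSS in DKO cells, 0 to 13 for the interaction, 16 to 17 for DKO static and 19 to 22 for DKO FFSS. For biosynthesis the ranges were 5 to 10, 0 to 0, 0 to 9, 11 to 13 and 13 to 21. Summed levels ranged from 37739 to 40619 CPM (control static), 17020 to 26382 (control FFSS), 90010 to 95280 (DKO static) and 92458 to 93906 (DKO FFSS). The upper ends of 15, 13, 10 and 9 came without control FFSS replicate 1, and without control FFSS replicate 3 the first was 0 (replicate 2, 1) while the biosynthesis interaction call (Leprel1) was lost on leaving out any library other than control FFSS replicates 1 and 2. For DKO FFSS, biosynthesis gave 13 without control FFSS replicate 2.

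Samples with the same replicate number did not deviate together (mean correlation -0.00327 over 18 pairs, from -0.144 to 0.128). With 3 libraries per group this cannot show that the numbers do not pair them. With the replicate block, 4 collagen genes were called for FFSS in control cells (3 of them shared), 0 for FFSS in DKO cells, 16 for DKO static and 20 for DKO FFSS.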
